A study of Mus musculus with 20 samples.

Results

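The Ifit genes encode interferon-induced proteins with tetratricopeptide repeats. The 4 members described here, Ifit1, Ifit2, Ifit3 and Ifit3b, were taken by name from 19938 measured mouse genes. The 20 arrays hold RNA of tumors of LLC-1, a Lewis lung carcinoma line, that had been implanted in C57Bl/6 hosts. Each member had 1 probe set paired with its symbol alone and none shared with another symbol, so there were no further probe sets to set beside them. Every tumor received adenoviral vector by 5 intratumoral injections at intervals of 48 h. Each was of 25 µl in PBS with a viral load in infectious units (ifu) whose log10 was 8. The 4 groups of 5 arrays differed in the gene carried: eGFP, a fluorescent protein used as the control, IFNbeta, p19Arf, or IFNbeta and p19Arf together (p19Arf+IFNbeta, called the combination). The control tumors thus also received adenovirus, and no uninjected tumor was analysed here. The same viral load is given for all 4 groups. Whether that of the combination counts each vector or both together is not known here. The labels number the tumors within each group, and some numbers recur in other groups. They do not say that each tumor came from a separate mouse, and they name neither the promoter that drives the vector genes nor the time from the last injection to collection. P-values therefore measure the spread between these tumors.

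Interferon beta binds the interferon alpha and beta receptor, whose kinases Jak1 and Tyk2 start the signal. A complex that includes Stat2 and Irf9 then binds interferon-stimulated response elements (ISRE) near the start of target genes, and the Ifit genes are among the most strongly induced of these targets in many cell types. Ifit1 recognises viral RNA whose cap lacks ribose methylation and blocks its translation. Ifit2 also binds RNA and the translation initiation factor eIF3 and limits the spread of several viruses. Ifit3 is a partner protein that in human cells stabilises IFIT1, and Ifit3b is a close copy of Ifit3. In RefSeq's annotation of assembly GRCm38.p6 the family lies on chromosome 19 in the order Ifit2, Ifit3, Ifit1bl1, Ifit3b, Ifit1bl2 and Ifit1, with the pseudogene Cnn2-ps between the last pair.

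The start regions of 3 members are printed because they hold the core of the response element named above, and because those of Ifit3 and Ifit3b show how alike the copies are. Each is a RefSeq window of assembly GRCm38.p6 on the plus strand, from 250 bases before to 50 after an annotated start: chr19:34640639-34640938 for Ifit1, chr19:34583279-34583578 for Ifit3 and chr19:34607707-34608006 for Ifit3b. Capitals mark matches to TTTCNNTTTC, the core of the ISRE, searched on both strands (GAAANNGAAA on the other), where N is any base.
Ifit1: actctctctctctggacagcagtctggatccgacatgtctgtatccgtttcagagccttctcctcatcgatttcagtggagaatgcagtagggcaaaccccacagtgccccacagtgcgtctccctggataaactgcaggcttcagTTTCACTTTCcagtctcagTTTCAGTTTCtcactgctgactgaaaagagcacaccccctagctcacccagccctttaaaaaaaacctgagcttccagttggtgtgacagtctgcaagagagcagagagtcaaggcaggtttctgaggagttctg
Ifit3: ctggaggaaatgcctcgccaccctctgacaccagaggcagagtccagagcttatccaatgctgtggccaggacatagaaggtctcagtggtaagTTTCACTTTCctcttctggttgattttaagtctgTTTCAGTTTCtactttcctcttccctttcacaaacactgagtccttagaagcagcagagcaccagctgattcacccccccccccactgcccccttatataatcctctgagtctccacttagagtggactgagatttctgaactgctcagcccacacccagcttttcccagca
Ifit3b: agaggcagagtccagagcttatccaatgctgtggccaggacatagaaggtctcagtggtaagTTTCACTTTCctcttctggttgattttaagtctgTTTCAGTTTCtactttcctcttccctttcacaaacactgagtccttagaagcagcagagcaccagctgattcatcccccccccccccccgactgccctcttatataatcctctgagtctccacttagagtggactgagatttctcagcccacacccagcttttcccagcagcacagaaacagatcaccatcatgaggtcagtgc
Each of these windows held 2 matches, TTTCACTTTC followed by TTTCAGTTTC. They began 104 and 85 bases before the start of Ifit1, 156 and 122 before that of Ifit3, and 188 and 154 before that of Ifit3b. At least 1 match was found in 3.44% of the 32851 windows of the table, and 2 or more in 0.225%. The table holds 2 windows for Ifit2, which had no match, and this says only that the motif is not within those windows. Local alignment of the Ifit3 and Ifit3b windows gave 259 identical bases over 274 columns (94.5%), with 1 mismatch and 14 gap columns. Whether probes of these near copies share sequence was not tested, so the values of both genes are uncertain.

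The deposited values are log2 expression values per probe set. How they were normalized is not stated, and their array medians were close, from 7.49 to 7.61. They carry no detection call, so a low value has no known background beside it, and the number of arrays limits the precision. The SD over all values of an array, called its spread, ran from 1.99 to 2.15, and correlations between arrays of a group ran from 0.951 to 0.994. The mean of 6 measured tumor cell and proliferation markers (Krt8, Krt18, Vim, Cd44, Mki67 and Top2a), none of which sets LLC-1 cells apart from host cells, ran from 9.93 to 10.3 over the 20 arrays. The array of IFNbeta replicate 3 stood apart in skin epidermis markers, with a mean over 6 genes of 9.28 against 6.31 to 7.42 on the other 19 arrays. Mean array spread was 2.11 ± 0.03 in eGFP and 2.11 ± 0.04 in IFNbeta, against 2.06 ± 0.05 with both vectors and 2.06 ± 0.05 with p19Arf alone (SD over 5 arrays each). The 5 arrays of lowest spread were replicates 4 and 5 of the combination, 2 and 4 of p19Arf and 3 of IFNbeta, and leaving them out was a setting chosen after seeing the data. Ifnb1, the gene carried by the interferon vector, had a mean of 6.21 ± 0.26 in IFNbeta and 6.03 ± 0.23 in the combination, against 6.10 ± 0.14 with eGFP and 6.00 ± 0.23 with p19Arf (SD, n = 5 each). Cdkn2a, the gene of p19Arf, had means of 7.58 ± 0.19 and 7.55 ± 0.21 with p19Arf alone and in the combination, against 7.43 ± 0.07 with eGFP and 7.38 ± 0.09 with IFNbeta. No group stood clear of the others in either gene. Whether the probes of these genes match the vector inserts was not tested, so the values do not check the labels.

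Ifit1 (gene identifier 15957) was highest in the IFNbeta tumors, where replicates 1 to 5 had log2 values of 10.42, 10.29, 11.005, 10.15 and 10.34. In eGFP it was at 9.86, 10.00, 10.02, 10.20 and 10.36. The p19Arf arrays gave 10.23, 9.60, 9.96, 9.57 and 9.77 and those of the combination 9.85, 10.13, 10.02, 9.64 and 9.44. All 5 combination arrays thus lay below all 5 IFNbeta arrays, by a narrow margin, while IFNbeta and eGFP overlapped and only replicates 1 and 3 of IFNbeta lay above every control. The group means were 10.44 ± 0.33 in IFNbeta, 10.09 ± 0.19 in eGFP, 9.83 ± 0.27 with p19Arf alone and 9.82 ± 0.28 with both vectors (SD, n = 5 each). The last pair differed by 0.01, far less than the spread within either group.

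Ifit2 (gene identifier 15958) was at 10.00, 9.83, 10.22, 9.70 and 9.83 in IFNbeta and 9.43, 9.45, 9.68, 9.63 and 9.70 with eGFP. The lowest IFNbeta array and the highest eGFP array agreed to 2 decimals, so the groups were separated only in the third. In p19Arf it was at 9.79, 9.70, 9.75, 9.31 and 9.28, and in the combination at 9.74, 9.78, 9.75, 9.21 and 8.71. In both groups with p19Arf 3 arrays lay above all eGFP arrays and the other 2 below all of them, and replicate 5 of the combination was the lowest of the 20 arrays. The means were 9.92 ± 0.20, 9.58 ± 0.13, 9.57 ± 0.25 and 9.44 ± 0.47 with IFNbeta, eGFP, p19Arf and both vectors (SD, n = 5 each), and the last 3 did not differ beyond their spread.

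Ifit3 (gene identifier 15959) was at 10.64, 10.40, 11.15, 10.12 and 10.25 in IFNbeta, against 9.61, 9.77, 10.03, 10.13 and 10.17 in eGFP. Replicate 4 of IFNbeta lay within the controls and the other 4 above all of them. The p19Arf arrays were at 10.22, 9.43, 9.86, 9.55 and 9.50 and the combination at 10.16, 10.20, 10.06, 9.84 and 9.28. In each of these groups 1 array lay above the control range and the other 4 within or below it. The means ran from 10.51 ± 0.40 in IFNbeta over 9.94 ± 0.24 in eGFP and 9.91 ± 0.38 in the combination to 9.71 ± 0.33 in p19Arf (SD, n = 5 each), and neighbours below IFNbeta differed by less than their SD.

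Ifit3b (gene identifier 667370) had the widest range of the 4 members, 2.38 over the 20 arrays against 1.51 to 1.86 for the others. Its mean level lay below that of the median gene, unlike those of the other members. It was at 6.37, 6.20, 7.45, 6.54 and 6.30 in IFNbeta and at 5.61, 6.08, 5.60, 5.94 and 5.48 in eGFP. The p19Arf arrays gave 5.85, 5.37, 5.40, 5.07 and 5.44 and the combination 5.72, 6.08, 5.59, 5.76 and 6.07. All 5 IFNbeta arrays were the 5 highest of the 20, and 4 of 5 p19Arf arrays lay below every control. The share of all genes with 1 group set apart from all others was not computed. The means were 6.57 ± 0.51 in IFNbeta, 5.84 ± 0.22 in the combination, 5.74 ± 0.25 in eGFP and 5.43 ± 0.28 in p19Arf (SD, n = 5 each). The combination and eGFP did not differ beyond their spread.

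**Figure D1:**
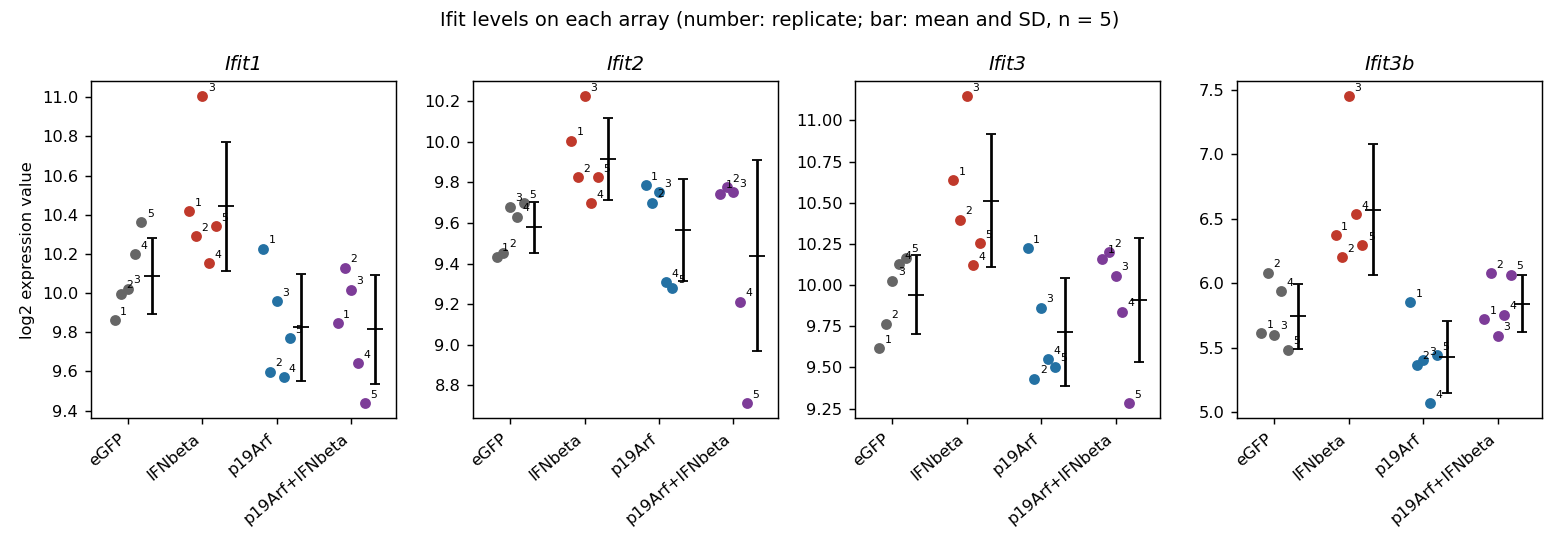
Log2 expression values of Ifit1, Ifit2, Ifit3 and Ifit3b on each of the 20 arrays by vector group, 1 panel per gene with its own vertical axis; points carry the replicate number, and the bar beside each group is its mean and SD (n = 5). In all 4 genes the IFNbeta group has the highest mean and its replicate 3 the highest single value, from 7.45 in Ifit3b to 11.15 in Ifit3.

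The comparison of IFNbeta with eGFP asks what the interferon vector changed relative to a control adenovirus. All 4 members had higher means in the IFNbeta tumors, as for 44.2% of all genes, with differences on the log2 scale of 0.35 for Ifit1 (95% interval 0.02 to 0.68), 0.34 for Ifit2 (-0.01 to 0.69), 0.57 for Ifit3 (0.17 to 0.97) and 0.83 for Ifit3b (0.43 to 1.22). As folds these were 1.28, 1.26, 1.49 and 1.77. None of the 4 passed: limma's adjusted p over all 19938 genes was 0.9998 for each, and 0 genes (0%) passed in this comparison, against 557 (2.79%) at an unadjusted p under 0.05. By that p with a higher mean, 3 of the 4 were called, against 1.34% of all genes, and in Ifit2 and Ifit3b all 5 IFNbeta arrays lay above all 5 eGFP arrays, against 0.552% of all genes. Ranked by the size of the difference among all genes, Ifit3b held place 17, Ifit3 place 55, Ifit1 place 184 and Ifit2 place 217.

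In IFNbeta replicate 3, the array of high skin epidermis markers, all 4 members had their highest value of the 20 arrays. Without it the differences of IFNbeta from eGFP were 0.21, 0.26, 0.41 and 0.61 for Ifit1, Ifit2, Ifit3 and Ifit3b, and with the skin epidermis score as a covariate they were 0.31, 0.31, 0.52 and 0.77. Skeletal muscle markers also had a higher mean in IFNbeta for 7 of 7 genes, with a mean level of 8.78 ± 0.93 (7.47 to 10.0) against 7.75 ± 0.35 (7.47 to 8.32) in eGFP (SD, n = 5 each). These markers were higher than in eGFP for 7 of 7 genes in the other groups too, at 8.39 ± 0.77 in p19Arf and 8.71 ± 0.83 in the combination. Their part in the Ifit differences was not tested. In bulk tumor RNA, more cells that respond and more transcript per cell cannot be told apart. With array weights, which give less weight to arrays that deviate more, Ifit1 differed by 0.22, and Ifit3b passed (difference 0.73, limma adjusted p = 0.0420). In that setting 5 of all genes passed, against 0 in the main fit. Ifit3b did not pass in any other setting tried, and its lowest adjusted p among them was 0.467.

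The p19Arf vector alone and the combination were each set against the same eGFP arrays. In p19Arf all 4 members had lower means than in eGFP, as for 45.6% of all genes, with differences of -0.26 for Ifit1 (95% interval -0.59 to 0.07), -0.01 for Ifit2 (-0.36 to 0.34), -0.23 for Ifit3 (-0.63 to 0.18) and -0.32 for Ifit3b (-0.71 to 0.07) on the log2 scale. In the combination 3 of 4 had lower means, as for 45% of all genes, and the differences were -0.27 (-0.60 to 0.06), -0.14 (-0.49 to 0.21), -0.03 (-0.43 to 0.37) and 0.10 (-0.29 to 0.49) for Ifit1, Ifit2, Ifit3 and Ifit3b. No member passed in either comparison. The smallest limma adjusted p of a member was 0.663 in p19Arf and 0.368 in the combination, and 0% of all genes passed in both. By unadjusted p under 0.05 none of the 4 was called in either, against 1445 genes (7.25%) in p19Arf and 3513 (17.6%) in the combination. The sign for Ifit2 in p19Arf and for Ifit2 and Ifit3 in the combination turned when single arrays were left out, and those values had no settled direction.

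The comparison of the combination with IFNbeta sets tumors with p19Arf beside tumors without it, where both received the IFNbeta vector. The load of each vector in the combination is not known. An effect of p19Arf thus cannot be told apart from a different dose of the IFNbeta vector. This comparison uses the same IFNbeta arrays as the one with eGFP. All 4 members had lower means in the combination, as for 42.9% of all genes, with differences of -0.63 for Ifit1 (95% interval -0.96 to -0.30), -0.48 for Ifit2 (-0.83 to -0.13), -0.60 for Ifit3 (-1.01 to -0.20) and -0.73 for Ifit3b (-1.12 to -0.34). The limma adjusted p was 0.150 for each of them, so none passed. Of all genes 0% passed, against 5147 (25.8%) at an unadjusted p under 0.05. By unadjusted p under 0.05 with a lower mean 4 of 4 were called, against 14% of all genes. In Ifit1 and Ifit3b all 5 combination arrays lay below all 5 IFNbeta arrays, against 0.782% of all genes.

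Whether Ifit1 and Ifit3b passed in that comparison depended on 1 array and on the setting. Without IFNbeta replicate 3 the differences were smaller, -0.49 and -0.51, but both genes passed with limma adjusted p-values of 0.0401 and 0.0383, and Ifit2 and Ifit3 were at -0.40 and -0.45 (0.109 and 0.0912). In that setting 2351 of all genes passed, against 0 with all 20 arrays. With the skin epidermis score as a covariate Ifit1 and Ifit3b also passed, at -0.53 and -0.61 (0.0303 and 0.0308), as they did with array weights, at -0.46 and -0.58 (0.0429 and 0.0394). Of all 19938 genes 3149 passed with the skin score and 1730 with array weights, against 0 in the main fit. Without the 5 arrays of lowest spread the differences shrank to -0.30 for Ifit1, -0.08 for Ifit2, -0.21 for Ifit3 and -0.56 for Ifit3b, and none passed. Fitted with each array's spread as a covariate they were -0.54, -0.33, -0.50 and -0.74 in the same order, and none passed. Ifit2 was at -0.29 without replicate 5 of the combination and at -0.32 with array weights. Over the settings tried the adjusted p ran from 0.0303 to 0.931 for Ifit1 and from 0.0308 to 0.788 for Ifit3b. Macrophage markers had lower means in the combination than in IFNbeta for 8 of 10 genes. Their mean level was 10.5 ± 0.33 (10.2 to 10.9) against 10.8 ± 0.15 (10.5 to 10.9), SD over 5 arrays each, and their part in the Ifit differences was not tested.

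The combination against p19Arf sets tumors with the IFNbeta vector beside tumors without it, where both received p19Arf. The dose of the p19Arf vector may differ between these groups, since the load of each vector in the combination is not known. The differences were -0.01 for Ifit1 (95% interval -0.34 to 0.32), -0.13 for Ifit2 (-0.47 to 0.22), 0.19 for Ifit3 (-0.21 to 0.60) and 0.42 for Ifit3b (0.02 to 0.81). None of the members passed (limma adjusted p = 0.998 for Ifit3b). Of all genes 0% passed, against 612 (3.07%) at an unadjusted p under 0.05. Ifit3b alone was called by unadjusted p with a higher mean, against 1.83% of all genes, and 2 of its 5 combination arrays lay above all p19Arf arrays. The signs for Ifit1 and Ifit2 turned when single arrays were left out.

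The IFNbeta tumors also had higher means of all 4 members than the p19Arf tumors. For Ifit3 and Ifit3b this was the largest difference between any 2 of the 4 groups, while Ifit1 and Ifit2 differed more between IFNbeta and the combination. Ifit3b was higher in IFNbeta by 1.14 (SE 0.19, 95% interval 0.75 to 1.54), a 2.21-fold difference, and passed with a limma adjusted p of 0.0421. All 5 IFNbeta arrays lay above all 5 p19Arf arrays, as for 0.757% of all genes. Ifit3b was 1 of 5 genes that passed (0.0251% of all genes). The others, named because they are so few, were Phf11d (1.05), Ifi207 (0.65), Ms4a4d (0.89) and Ifi213 (1.05), and all were higher in IFNbeta. Ifit1 differed by 0.62 (95% interval 0.29 to 0.95), Ifit2 by 0.35 (0.0015 to 0.70) and Ifit3 by 0.80 (0.40 to 1.20), with adjusted p-values of 0.170, 0.239 and 0.155, and did not pass. With array weights Ifit1 and Ifit3 also passed, at 0.41 and 0.61 (adjusted p = 0.0200 and 0.0116), and Ifit2 was at 0.21. In that setting 4495 of all 19938 genes passed, against 5 in the main fit. Without the 5 arrays of lowest spread the differences were 0.32 for Ifit1, 0.23 for Ifit2 and 0.49 for Ifit3. Quantile normalization also gave 0.23 for Ifit2, and fitting each array's spread gave 0.21. All 4 had higher means, as for 45.5% of all genes, and all 4 were called by unadjusted p with a higher mean, against 8.48% of all genes (20.9% in either direction). Macrophage markers had higher means in IFNbeta than in p19Arf for 8 of 10 genes, with a mean level of 10.8 ± 0.15 against 10.5 ± 0.22, and endothelial markers for 7 of 7, at 8.39 ± 0.06 against 8.10 ± 0.14 (SD, n = 5 each). Their part in the Ifit differences was not tested.

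The call for Ifit3b rested near the threshold. It was lost when any 1 of 11 arrays was left out (replicates 1, 3, 4 and 5 of eGFP, 1 and 4 of IFNbeta, 2, 3, 4 and 5 of p19Arf, and 3 of the combination), with adjusted p-values from 0.0524 to 0.128. It was kept without each of the other 9. With only genes above the median level there was no call, since Ifit3b lay below that level. The difference itself ran from 0.93 without IFNbeta replicate 3 to 1.25 without p19Arf replicate 1. It was also lost with the replicate number as a block (adjusted p = 0.111) and under quantile normalization (1.30, adjusted p = 0.111), with the array spread as a covariate (1.16, 0.152), with only those groups in the fit (0.189) and without the 5 arrays of lowest spread (0.79, 0.230).

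**Figure D2:**
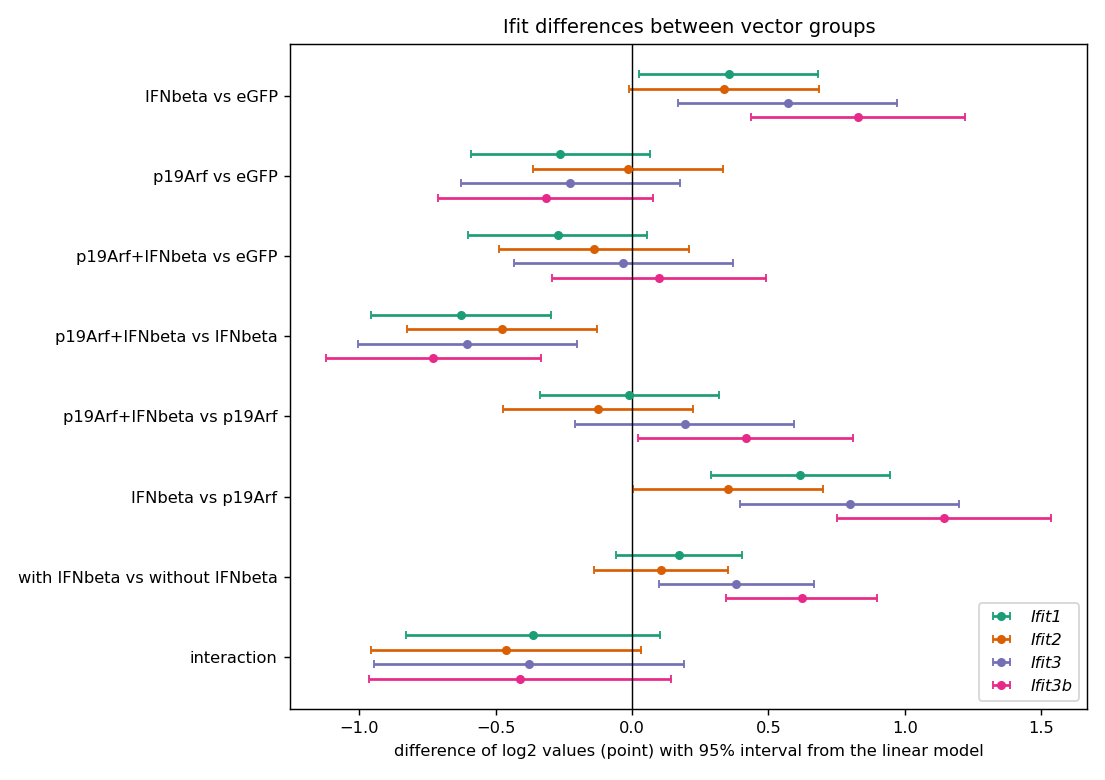
Differences of log2 values between vector groups for the 4 members (points) with 95% intervals from the linear model on 20 arrays; the horizontal axis is on the log2 scale and each row is a comparison. All 4 points lie above 0 for IFNbeta against eGFP and against p19Arf and below 0 for the combination against IFNbeta, and the largest is Ifit3b in IFNbeta against p19Arf at 1.14.

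All 20 arrays were also compared by whether the tumor received IFNbeta, alone or with p19Arf. The 10 tumors with it had higher means in all 4 members, as for 41.5% of all genes, by 0.17 for Ifit1 (95% interval -0.06 to 0.40), 0.11 for Ifit2 (-0.14 to 0.35), 0.38 for Ifit3 (0.10 to 0.67) and 0.62 for Ifit3b (0.34 to 0.90). None passed (limma adjusted p = 0.417 for Ifit3b and 0.959 for the others). Of all genes 0% passed, against 981 (4.92%) at an unadjusted p under 0.05, and 2 of the 4 were called by unadjusted p with a higher mean, against 2.77% of all genes. With array weights Ifit3b passed at 0.56 (adjusted p = 0.0337), within a range over the settings of 0.0337 to 0.906. In that weighted fit 12 of all genes passed. Without IFNbeta replicate 3 the differences were 0.10 for Ifit1, 0.07 for Ifit2, 0.30 for Ifit3 and 0.51 for Ifit3b. Ifit1 was at 0.09 with array weights and 0.11 without the 5 arrays of lowest spread. Ifit2 was also at 0.06 to 0.07 without replicate 1, 2 or 3 of the combination or replicate 5 of p19Arf, at 0.06 with array weights, at 0.20 without replicate 5 of the combination and at 0.21 without the 5 arrays. Whether the vectors together differed from the sum of each alone was tested as the interaction, the difference of the combination from IFNbeta minus that of p19Arf from eGFP. This reading assumes that each vector had the same dose alone and in the combination, which is not known. The interaction was -0.36 for Ifit1 (95% interval -0.83 to 0.10), -0.46 for Ifit2 (-0.96 to 0.03), -0.38 for Ifit3 (-0.95 to 0.19) and -0.41 for Ifit3b (-0.97 to 0.14). All 4 values were below 0, as for 47.8% of all genes, and all intervals held 0. None passed, as for 0% of all genes by limma's adjusted p, and none was called by unadjusted p under 0.05, against 260 genes (1.3%). Without IFNbeta replicate 3 the interaction was -0.22 for Ifit1, -0.39 for Ifit2, -0.22 for Ifit3 and -0.19 for Ifit3b. Without replicate 5 of the combination it was -0.28 for Ifit2 and -0.22 for Ifit3, and without replicate 1 of p19Arf it was -0.25 for Ifit3. Without the 5 arrays of lowest spread it was -0.20 for Ifit1, -0.11 for Ifit2, -0.14 for Ifit3 and -0.38 for Ifit3b, and Ifit3 was at -0.23 with array weights.

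**Figure D3:**
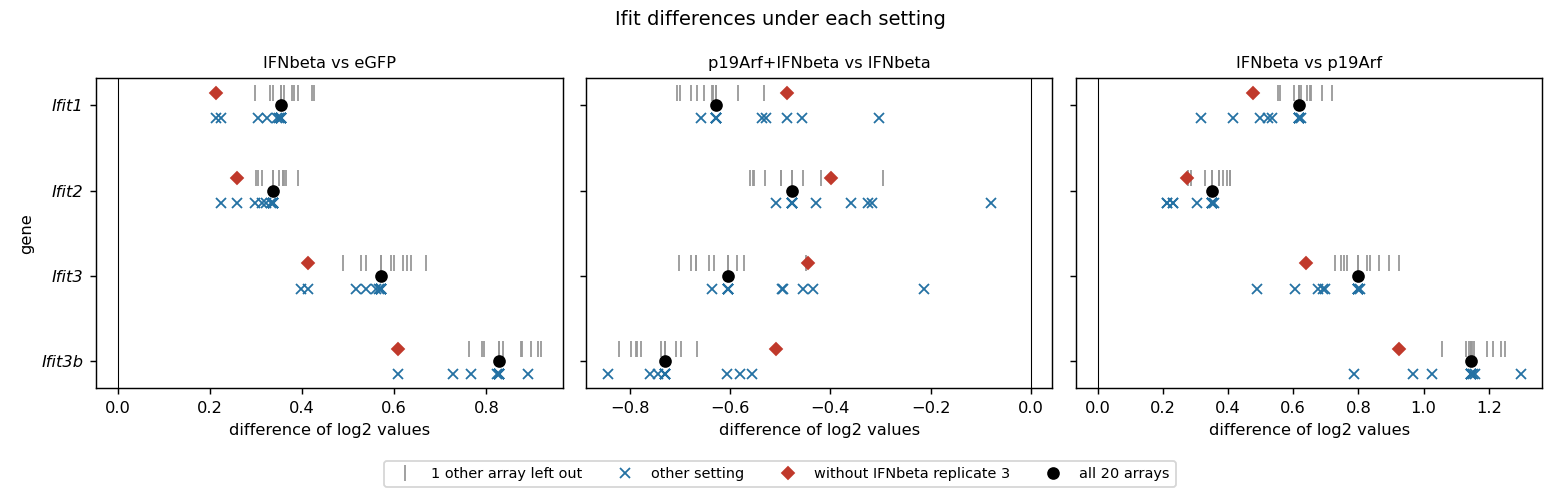
Differences of log2 values of the 4 members in 3 comparisons, with all 20 arrays (black), with 1 array left out (grey marks, red diamond for IFNbeta replicate 3) and under the other settings (crosses). The sign held in every setting shown, some of which cannot change a difference. Ifit2 in the combination against IFNbeta came nearest to 0, at -0.08 without the 5 arrays of lowest spread.

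The members varied together from array to array, and the lowest pairwise r-values were those of Ifit3b. Over the 20 arrays Ifit1 and Ifit3 had a Pearson r of 0.934 and a Spearman rho of 0.908 (permutation p = 1e-05 for both, the smallest that 100000 permutations can give, adjusted over the 6 pairs 3e-05 and 6e-05). Ifit2 and Ifit3 gave r = 0.841 and rho = 0.847 (permutation p = 1e-05 and 2e-05, adjusted 3e-05 and 6e-05), and Ifit1 and Ifit2 gave 0.823 and 0.75 (3e-05 and 0.00031, adjusted 6e-05 and 0.00062). Ifit3b correlated with Ifit3 at r = 0.734 and rho = 0.632 (permutation p = 0.00048 and 0.00311, adjusted 0.00072 and 0.00466). With Ifit1 it gave 0.73 and 0.612 (0.00062 and 0.00493, adjusted 0.000744 and 0.00592). With Ifit2 it gave 0.448 and 0.457 (permutation p = 0.0533 and 0.0431, unchanged by the adjustment).

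The 2 arrays farthest from the median were judged in 1 gene of each pair, never in Ifit3b. They were IFNbeta replicate 3 and replicate 5 of the combination in each of these relations. Without them r was 0.866, 0.769, 0.732, 0.705, 0.685 and 0.486 in the order just given. The lowest array of Ifit3b itself, replicate 4 of p19Arf, was thus kept in its pairs. For deviations from the group means, which leave out differences between vectors, r was 0.931 for Ifit1 and Ifit3, 0.834 for Ifit2 and Ifit3 and 0.775 for Ifit1 and Ifit2. For Ifit3b it was 0.414 with Ifit3, 0.527 with Ifit1 and 0.159 with Ifit2, and the first and the last did not pass (permutation p adjusted 0.0845 and 0.495). Replicate 5 of the combination shows the difference. It held the lowest value of the 20 arrays in Ifit1, Ifit2 and Ifit3 but place 8 from the top in Ifit3b.

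Ifit1bl2, a further family member measured on the array, did not follow the others from array to array. Like them, it had its highest group mean in IFNbeta. With eGFP it was at 5.74, 6.12, 5.79, 5.93 and 5.82, and with IFNbeta at 6.11, 6.20, 6.21, 6.34 and 7.20. The p19Arf arrays gave 6.07, 6.42, 5.86, 5.78 and 5.52, and the combination 5.99, 6.15, 6.09, 6.19 and 6.40. Its highest array was IFNbeta replicate 5 and not replicate 3, and 4 of 5 IFNbeta arrays lay above all controls. Its means were 5.88 ± 0.15 with eGFP, 6.41 ± 0.45 with IFNbeta, 5.93 ± 0.34 with p19Arf and 6.16 ± 0.15 with both vectors (SD, n = 5 each). The difference of IFNbeta from eGFP was 0.53 (SE 0.17, limma adjusted p = 0.9998), and 0.34 without IFNbeta replicate 5. Over the 20 arrays its r with the mean of the 4 members was 0.305, and that of their deviations within groups was -0.17. Of the 2 windows listed for Ifit1bl2, 1 has its start 146 bases from that of Ifit1 on the other strand. That window shares 245 bases with the Ifit1 window, so both Ifit1 matches to the ISRE core were also found there, on the reverse strand. The other Ifit1bl2 window lies apart from that of Ifit1 and had no match.

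The 8 genes whose pattern was most like the mean of the 4 members, by Pearson r over the 20 arrays among 18709 genes, were Usp18 (0.945), Phf11d (0.941), Ifi209 (0.901), Ifih1 (0.893), Ifi213 (0.889), Znfx1 (0.887), Cmpk2 (0.887) and Ms4a4c (0.868). Usp18 removes ISG15 from proteins and damps the interferon receptor, Ifih1 is the RNA sensor MDA5, Ifi209 and Ifi213 belong to the PYHIN family of interferon-induced proteins, and Cmpk2 is a mitochondrial nucleotide kinase. Usp18, Ifih1 and Cmpk2 also stand in the pathway lists described next. For deviations from the group means these r-values ran from 0.712 to 0.891, and without IFNbeta replicate 3 from 0.83 to 0.915. Each of the 8 had its highest group mean in IFNbeta. Phf11d was the most like Ifit3b (r = 0.917) and Usp18 the most like Ifit1 (0.92). These genes were picked for their r, so no test is given.

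**Figure D4:**
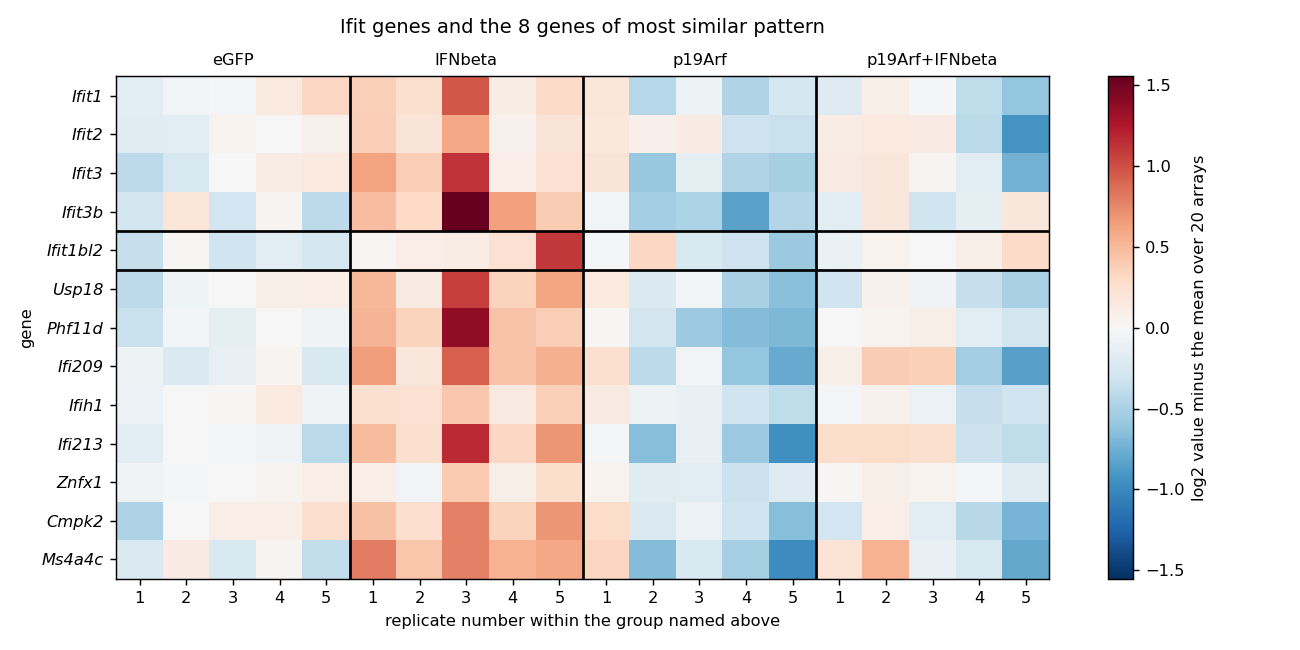
Log2 value minus the gene's mean over the 20 arrays (colour) for the 4 members, Ifit1bl2 and the 8 genes most like the members, by replicate within each vector group. The IFNbeta columns are red in most rows, darkest in replicate 3 for the 4 members, while Ifit1bl2 peaks in replicate 5 of that group at 7.20 on the log2 scale.

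Antiviral effectors, other genes that interferon is known to induce, were higher in mean in IFNbeta than in eGFP for 24 of 24 measured genes and lower in the combination than in IFNbeta for 24 of 24. These comparisons share their IFNbeta arrays, and in neither did any of the 24 pass over all genes. The median difference was 0.29 in IFNbeta against eGFP, beside 0.46 for the 4 Ifit members and -0.02 for all genes. The 3 highest were Oas2, which makes the activator of RNase L, at 0.60 (SE 0.24), the GTPase Mx1 at 0.59 and Ifi27l2a at 0.56, and the 3 lowest Adar (0.13), Zc3hav1 (0.10) and Ifitm3 (0.04). In the combination against IFNbeta the median was -0.29, beside -0.62 for the 4 Ifit members and 0.05 for all genes. Oas2 differed there by only -0.05, Mx1 by -0.35 and Ifi27l2a by -0.41, against -0.73 for Ifit3b. In the combination against p19Arf 17 of the 24 were higher, with a median of 0.08.

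Upstream of the Ifit genes, 9 of 11 genes of the receptor and its signalling had higher means in IFNbeta than in eGFP, with a median of 0.10 and none past the threshold. Irf7, the factor that amplifies the interferon response, was at 10.37 ± 0.50 against 9.82 ± 0.16, Stat2 at 10.28 ± 0.43 against 9.97 ± 0.19 and Irf9 at 9.58 ± 0.13 against 9.43 ± 0.05 (SD, n = 5 each). The lowest were Irf1 (0.01), Ifnar1, a receptor chain, (-0.01) and Jak1 (-0.02). In the combination against IFNbeta 5 of the 11 were lower, among them Jak1 (-0.37), Irf7 (-0.28) and Irf9 (-0.18), and 6 were higher. Unlike the Ifit members, Stat2 did not have a lower mean in the combination than in IFNbeta (0.04), and Irf1 was higher there (0.31, limma adjusted p = 0.151). This difference between genes was not tested. Among sensors of nucleic acids and their signalling partners, called the sensor list, 9 of 10 were higher in IFNbeta than in eGFP (median 0.24). Zbp1 (0.38), Dhx58 (0.38) and Tlr7 (0.34) were the highest and Tbk1 (0.08), Mavs (0.04) and Cgas (-0.03) the lowest. None of this list passed.

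Of 7 feedback regulators 5 were higher in IFNbeta than in eGFP (median 0.23, none past the threshold). Usp18 was at 10.47 ± 0.35 against 9.88 ± 0.21 and 9.71 ± 0.23 in the combination, Trim30a differed by 0.42 and Herc6, a ligase for ISG15, by 0.32. The lowest were Irf2 (0.10), Socs1 (-0.02) and Socs3 (-0.04), the last 2 being inhibitors of Jak kinases. Subunits of eIF3, the translation factor that Ifit proteins bind, showed no such pattern in IFNbeta against eGFP. In IFNbeta 5 of 11 were higher than in eGFP, with a median of -0.04 and values from -0.13 in Eif3e and -0.12 in Eif3f to 0.04 in Eif3b, with Eif3m at -0.09 and Eif3d and Eif3a at 0.03 and 0.02. In the combination 11 of 11 subunits had lower means than in eGFP, as for 45% of all genes. Their median there was -0.32, beside 0.02 for all genes, with none past the threshold over all genes. With p19Arf alone 10 of 11 were also lower than in eGFP, as for 45.6% of all genes, and none passed. The median in p19Arf was -0.14, beside 0.02 for all genes. Against IFNbeta 10 of 11 were lower in the combination, as for 42.9% of all genes, and none passed. Their median there was -0.27, beside 0.05 for all genes and -0.29 for the antiviral effectors.

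Of 16 antiviral effectors with a start window, 6 held the ISRE core there (37.5%), among them Rsad2 and Oas1a. The share was 3 of 6 for feedback regulators (50%), 2 of 6 for the sensor list (33.3%) and 2 of 11 for genes of the receptor and signalling (18.2%). It was 1 of 8 for eIF3 subunits (12.5%), 2 of 7 for the genes most like the members (28.6%) and 3 of 4 for the members, against 3.99% of all 27025 genes. Irf2 stands in 2 of these lists, and Ifih1 both in the sensor list and among the genes most like the members. These counts describe letters within the windows.

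**Figure D5:**
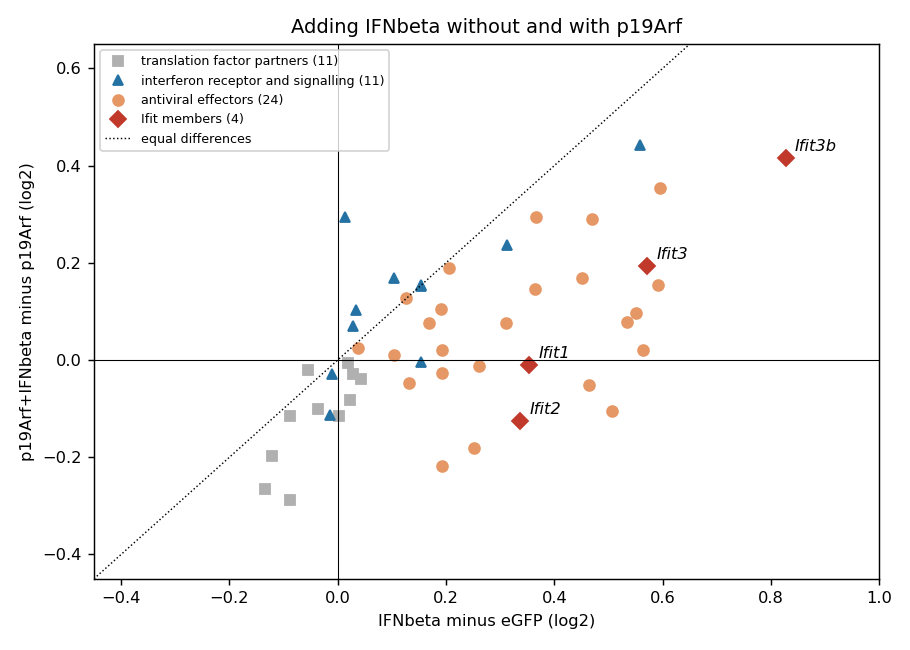
Difference of log2 values between IFNbeta and eGFP (horizontal) and between the combination and p19Arf (vertical) for the 4 members, 24 antiviral effectors, 11 genes of the receptor and signalling and 11 eIF3 subunits; the dotted line marks equal differences. The 4 members lie below the line, from Ifit2 at 0.34 and -0.13 to Ifit3b at 0.83 and 0.42.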

How the data were processed

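Total RNA of 20 implanted LLC-1 tumors was extracted with Trizol and hybridised as biotin-labelled RNA to Affymetrix arrays (per the labels). The authors deposited log2 values for 35556 probe sets. Their range of 2.33 to 14.7 gave the log base. Per the submitters' processing notes, GCOS and Affymetrix Expression Console were used. How probes were summarised and background was corrected is not stated there. Of the probe sets, 21789 had 1 symbol, 1621 several and 12146 none in the annotation used; symbols were updated by gene identifier to RefSeq, assembly GRCm38.p6 (91 without a match kept theirs). Only single-symbol probe sets were used, the one of highest mean per gene. limma 3.58.1 in R 4.3.3 was fitted to 19938 genes with 1 mean per group (16 residual degrees of freedom), with eBayes, 8 two-sided contrasts and Benjamini-Hochberg adjustment over all genes within a contrast; a gene passed under 0.05. The fit was tested on simulated data. The members and lists were chosen with earlier results of these data known. Named were the members, Ifit1bl2, Ifnb1 and Cdkn2a, the 3 highest and 3 lowest genes of each pathway list in IFNbeta against eGFP, and the 8 genes most like the members, predicted genes left out. Alternatives covered normalization, centring, probe sets, array weights, moderation, covariates, a filter on low values, the replicate block and arrays left out. No scan date or other batch was used here.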

Additional observations from a re-analysis of the deposited data

Results flagged for a closer look

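Within the IFNbeta group 3 values lay far from the other 4 arrays, by a gap to the nearest array of more than 0.71 of the group's range. Of the 28 sets of 5 values checked (7 genes in 4 groups), chance marks about 1 in 20. Ifit3b on IFNbeta replicate 3 was at 7.45, with the others from 6.20 to 6.54. Ifnb1 on the same array was at 6.65, with the others from 6.03 to 6.20, and this array also had the high skin epidermis markers; their part was not tested. Ifit1bl2 on IFNbeta replicate 5 was at 7.20, with the others from 6.11 to 6.34.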

How the results depend on the processing

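Each member difference was recomputed under up to 31 alternative settings. The sign held in all 123 values for IFNbeta against eGFP, 123 for the combination against IFNbeta, 123 for IFNbeta against p19Arf and 119 for tumors with against without IFNbeta. Several settings could not change a difference: averaging probe sets, moderation, the filter on low values and the replicate block. The same held for fitting only the groups compared and for leaving out an array of a group outside the comparison. The sign was fixed in all of these, so the counts include values that repeat the main one. Apart from leaving out single arrays, 310 of 336 alternative values kept both sign and side of the threshold, these fixed signs included. For Ifit2 in p19Arf against eGFP the difference turned to 0.067 under quantile normalization, 0.011 with array weights, 0.11 with the array spread as covariate, 0.0089 with the skin epidermis score as covariate and 0.027 without the 5 arrays of lowest spread, a setting chosen after seeing the data. For the combination against eGFP, Ifit3 turned to 0.084, 0.065, 0.023 and 0.20 under quantile normalization, the spread, the skin score and without the 5 arrays, and Ifit2 to 0.18 in the last. For the combination against p19Arf, Ifit1 turned to 0.012 under quantile normalization and 0.013 without the 5 arrays, and Ifit2 to 0.15 there. With 1 array left out, Ifit2 ranged from -0.069 to 0.058 in p19Arf against eGFP, from -0.22 to 0.042 in the combination against eGFP and from -0.21 to 0.056 in the combination against p19Arf. Ifit3 ranged from -0.11 to 0.12 in the combination against eGFP, and Ifit1 from -0.089 to 0.090 in the combination against p19Arf.

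Numbers of genes past the threshold moved more. Ifit3b was not among the genes above the median level, so counts in that setting leave it out. In IFNbeta against p19Arf (5 genes) they were 4495 with array weights, 2 among genes above the median level, 2 with the skin score, 1 with the replicate block, and 0 under quantile normalization, with the array spread, with only those groups in the fit and without the 5 arrays, and 0 to 28 with 1 array left out (28 without p19Arf replicate 1). In the combination against IFNbeta (0 genes) they were 1730 with array weights, 3149 with the skin score, 1 with median centring and 1 among genes above the median level, and 0 to 2351 with 1 array left out (2351 without IFNbeta replicate 3). In the combination against eGFP (0 genes) they were 166 with array weights and 3 without the 5 arrays, and 0 to 84 with 1 array left out (84 without eGFP replicate 1). In IFNbeta against eGFP (0 genes) they were 5 with array weights and 1 without the 5 arrays, and for tumors with against without IFNbeta 12 with array weights. The cause was not tested. The correlation of Ifit3 and Ifit3b was 0.414 for deviations within groups and no longer passed. Replicate numbers, taken from the sample titles, did not pair the arrays: 11 of 30 same-numbered pairs had correlated deviations above 0.1 (median -0.0476), and 2 of 20 arrays correlated best with their own number. The tumor numbers in the labels, some of which recur in other groups, were not checked in this way.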
